A study of Canis lupus familiaris with 6 samples.

Results

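Adipocyte genes were followed in left ventricular tissue of 6 dogs, 1 Affymetrix canine array per dog. The members were 8 genes that mark fat cells: PLIN1, CIDEC, LIPE, PCK1, FABP4, PPARG, ADIPOQ and LEP, out of 15115 genes with a probe set of exactly 1 symbol in the array annotation. All 13 of their probe sets were used, with no filter. The affected group held 3 Great Danes whose tissue is labelled as dilated cardiomyopathy: affected 1, a female of 9 years, and affected 2 and affected 3, males of 7 years. The control group held 3 dogs of other breeds: control 1, a male Labrador retriever of 12 years, control 2, a female St. Bernard of 10 years, and control 3, a male Greater Swiss Mountain dog of 4 years. Breed and disease cannot be told apart in this design. All tissue was snap-frozen left ventricle, and the labels give no treatment. The genes were chosen by their values on these same 6 arrays, where 1 array had stood apart, so those values are given as a description with no test. The question was which single arrays, if any, carry a signal of fat tissue.

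A white fat cell stores triglyceride in a large lipid droplet. Perilipin and CIDE proteins coat and enlarge the droplet, lipases empty it, and the nuclear receptor PPARG, bound to RXR, switches on the genes of the cell. Fat cells also release hormones such as adiponectin and leptin. The heart surface carries fat under the epicardium, and the ventricle wall can hold fat cells between muscle fibres. FABP4 is also made by capillary endothelium and macrophages, and PCK1 by liver and kidney, so neither marks fat alone. In bulk tissue, fewer cells of a type and less RNA per cell cannot be told apart.

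The deposited values are relative: each probe set is centred on its median of the 6 arrays, on a scale taken as log2. Levels of different genes can therefore not be compared, and a value of 0 says nothing about whether a gene is expressed. A set of 17 control probe sets that the array names as tags, taken as unexpressed in dog tissue, served as a background. Their mean was -0.03, -0.03 and -0.01 on affected 1, 2 and 3, against 0.06, 0.01 and 0.13 on control 1, 2 and 3. Of all 42924 probe sets, 41.8% ran with these tags over the 6 arrays at a correlation over 0.9. The 36 control probe sets for added bacterial transcripts (dap, lys, phe and thr) averaged 0.55, -0.23 and 2.53 on affected 1, 2 and 3, against -0.01, -0.22 and -0.09 on the control arrays, so affected 3 and affected 1 stood apart in these controls. The hybridization control bioC was low on the same arrays, at -1.66, -0.04 and -1.25 on affected 1, 2 and 3, against 0.05, 0.09 and 0.19 on the control arrays. The 3' minus 5' difference of beta-actin was 0.31, -0.18 and 0.58 on affected 1, 2 and 3, against 0.08, 0.11 and -0.34 on the control arrays. That of GAPDH was 0.02, 0.14 and -0.03 on affected 1, 2 and 3, against -0.04, 0.15 and -0.14 on the control arrays, and did not set affected 1 or affected 3 apart. The part of these control values in the results was not tested. The 6 arrays came from 6 dogs, 3 per group, and their number limits the precision of every difference.

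Affected 1 held a strong excess of PCK1, CIDEC and ADIPOQ, each in 1 probe set. LIPE and PPARG showed none there, and FABP4 and LEP were highest there by only 0.33 and 0.38. The PLIN1 probe sets were flat on all arrays, and whether they measure the current PLIN1 transcript was not tested. Affected 1 lay at least 1 above every other array in 3 of the 13 adipocyte probe sets, where 0.797% of all probe sets did so. The count was 0 of 13 on affected 2 (0.31% of all probe sets) and affected 3 (0.452%), and also on control 1 (0.312%), control 2 (0.424%) and control 3 (0.808%). These 3 probe sets were at least 3 above every other array, a mark reached on affected 1 by 15 of all 42924 probe sets (0.0349%). Affected 1 was the highest array in 5 of the 13, where the share over all probe sets was 12.9%. Control 3 was also the highest in 5, where the share was 50%, and these were both probe sets of PLIN1, 2 of PCK1 and the narrower one of ADIPOQ. The lowest array was affected 2 in 6 (38.5% of all probe sets), affected 3 in 4 (9.35%) and control 2 in 3 (7.11%). Of the 13, 9 spanned at least 1 over the arrays, where 23.6% of all probe sets did.

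**Figure D1:**
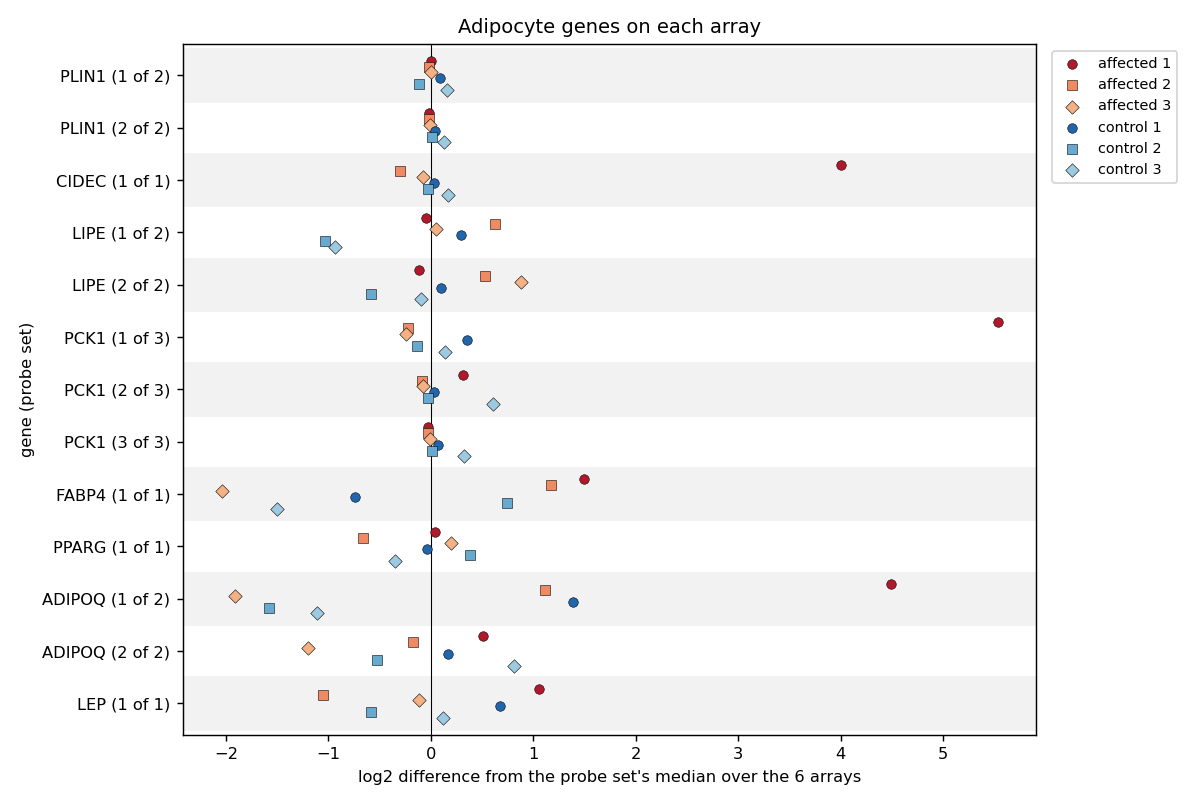
Values of the 13 adipocyte probe sets on each array, in log2 relative to the probe set's median (horizontal axis). Each row is 1 probe set, numbered within its gene by range, and each point is 1 array; affected 1 stands far to the right for CIDEC, 1 of 3 PCK1 probe sets and 1 of 2 ADIPOQ probe sets, with PLIN1 near 0 on every array.

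Of the droplet proteins, CIDEC, which fuses lipid droplets into large ones, had 1 probe set. It read 4.00, -0.30 and -0.07 on affected 1, 2 and 3, against 0.03, -0.03 and 0.16 on control 1, 2 and 3. Affected 1 alone was high, 3.84 above the next array (14.3-fold), and the other 5 arrays spanned 0.46. The group means were 1.21 ± 2.42 in affected and 0.05 ± 0.10 in control hearts (SD, n = 3 each), a difference of 1.16 (SE 1.24). Without affected 1 the difference was -0.24, so the higher mean of the affected group rested on that array.

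PLIN1 encodes perilipin 1, the coat protein of the fat cell droplet, and both of its probe sets were flat. The narrower one read -0.01, -0.02 and -0.01 on affected 1, 2 and 3, against 0.04, 0.01 and 0.13 on control 1, 2 and 3, and its correlation with the unexpressed tags over the 6 arrays was 0.99. The wider one read -0.004, -0.02 and 0.004 on affected 1, 2 and 3, against 0.09, -0.12 and 0.16 on the control arrays. Their ranges of 0.15 and 0.27 were below the median range of 0.49 over all probe sets. The differences of -0.07 (SE 0.05) and -0.05 (SE 0.08) had the other sign, 0.02 and 0.07, after quantile normalization. The gene ID that the array annotation gives PLIN1 is not in the RefSeq table used, where the symbol has another ID. Whether these probe sets measure the current PLIN1 transcript was not tested, so their flat values do not show that this fat cell marker was absent from affected 1.

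LIPE encodes hormone-sensitive lipase, which splits diglyceride during fat breakdown, and it was not high on affected 1. One probe set read -0.11, 0.53 and 0.88 on affected 1, 2 and 3, against 0.10, -0.58 and -0.10 on control 1, 2 and 3. The other read -0.05, 0.63 and 0.05 on affected 1, 2 and 3, against 0.29, -1.03 and -0.94 on the control arrays. The groups overlapped in both, through control 1 and control 3 in one and control 1 in the other. The affected mean was higher by 0.62 (SE 0.31) and 0.77 (SE 0.42), and by 0.90 in each without affected 1. The highest array was affected 3 in one probe set and affected 2 in the other.

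PCK1 encodes cytosolic phosphoenolpyruvate carboxykinase, which in fat makes the glycerol backbone for storing fatty acids again. Its first probe set read 5.53, -0.22 and -0.24 on affected 1, 2 and 3, against 0.36, -0.14 and 0.14 on control 1, 2 and 3. Affected 1 alone was high, by 5.17 over the next array (36.1-fold), the second highest such excess among all probe sets. The affected mean was 1.69 ± 3.33 and the control mean 0.12 ± 0.25 (SD, n = 3 each). The difference of 1.57 (SE 1.70) was -0.35 without affected 1.

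The other PCK1 probe sets did not share this. The second read 0.31, -0.09 and -0.08 on affected 1, 2 and 3, against 0.03, -0.03 and 0.60 on the control arrays, with control 3 the highest, and its difference of -0.15 was 0.05 without control 3. The third read -0.02, -0.03 and -0.01 on affected 1, 2 and 3, against 0.06, 0.01 and 0.32 on the control arrays, and ran with the unexpressed tags at a correlation of 0.96. Probe sets annotated to 1 gene thus disagreed, and which of them measures canine PCK1 best was not tested.

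FABP4, which carries fatty acids inside fat cells and capillary endothelium, was spread in both groups. It read 1.50, 1.17 and -2.04 on affected 1, 2 and 3, against -0.75, 0.75 and -1.50 on control 1, 2 and 3. Affected 1 and affected 2 were the highest and affected 3 the lowest of all 6, so the affected group spanned the whole control range. The affected mean was 0.21 ± 1.96 and the control mean -0.50 ± 1.14 (SD, n = 3 each). The difference of 0.71 (SE 1.16) was 0.07 without affected 1 and 1.83 without affected 3. Affected 1 exceeded affected 2 by 0.33, which is 1.25-fold.

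PPARG, the nuclear receptor that drives fat cell formation, was not high on affected 1. Its probe set read 0.04, -0.67 and 0.20 on affected 1, 2 and 3, against -0.04, 0.38 and -0.35 on control 1, 2 and 3. Control 2 was the highest, affected 2 the lowest, and the groups overlapped, with a difference of -0.14 (SE 0.30), which was 0.12 without affected 2 and 0.05 without control 2. Its range of 1.05 was the smallest among the 9 member probe sets that spanned at least 1, and the largest of the other 4 spanned 0.69.

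ADIPOQ encodes adiponectin, a hormone made almost only by fat cells, and one of its probe sets had the largest range of all members, 6.40. It read 4.49, 1.11 and -1.91 on affected 1, 2 and 3, against 1.39, -1.58 and -1.11 on control 1, 2 and 3. Affected 1 stood 3.10 above the next array, control 1 (8.58-fold), and affected 3 was the lowest. Among the other 5 arrays, control 1 and affected 2 were high and the remaining 3 were low, so the ADIPOQ signal varied in both groups apart from affected 1. The affected mean was 1.23 ± 3.20 and the control mean -0.43 ± 1.59 (SD, n = 3 each). The difference of 1.66 (SE 1.82) was 0.03 without affected 1 and 3.23 without affected 3.

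The other ADIPOQ probe set carries the same sequence cluster number in its name and read 0.51, -0.17 and -1.20 on affected 1, 2 and 3, against 0.17, -0.53 and 0.81 on control 1, 2 and 3. Control 3 was the highest here and affected 3 again the lowest. The correlation between both probe sets over 6 arrays was 0.53. The difference was -0.44 (SE 0.56), and it was -0.84 without affected 1 and 0.02 without affected 3.

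LEP encodes leptin, the fat cell hormone that reports stored fat to the brain. It read 1.06, -1.06 and -0.12 on affected 1, 2 and 3, against 0.67, -0.59 and 0.12 on control 1, 2 and 3. Affected 1 was the highest, by 0.38 over control 1 (1.31-fold), and affected 2 the lowest. The difference of -0.11 (SE 0.63) was -0.66 without affected 1, 0.40 without affected 2 and 0.20 without control 1. Affected 1 and control 1 were thus the 2 highest arrays for LEP and for the wide-ranging ADIPOQ probe set.

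Across the members, 6 of 13 probe sets had a higher and 7 a lower affected mean, where 33.0% of all probe sets had a higher one. The groups did not overlap in 2 of the 13, both lower in affected hearts, where 46.9% of all probe sets lay lower without overlap. These were the flat PLIN1 and PCK1 probe sets that ran with the unexpressed tags. The groups did not overlap upwards in 0 of 13, where 5.37% of all probe sets did. The median difference of the 8 gene values was 0.52, beside -0.08 over all probe sets, and turned to -0.24 without affected 1. The mean of the 8 genes was 1.37, 0.01 and -0.41 on affected 1, 2 and 3, against 0.14, -0.18 and -0.22 on the control arrays. Control 2, the other female dog, had the value -0.18. With sex as a covariate the median difference stayed at 0.52, which 1 female in each group fixes in advance. The part of sex in the value of affected 1 was not tested.

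**Figure D2:**
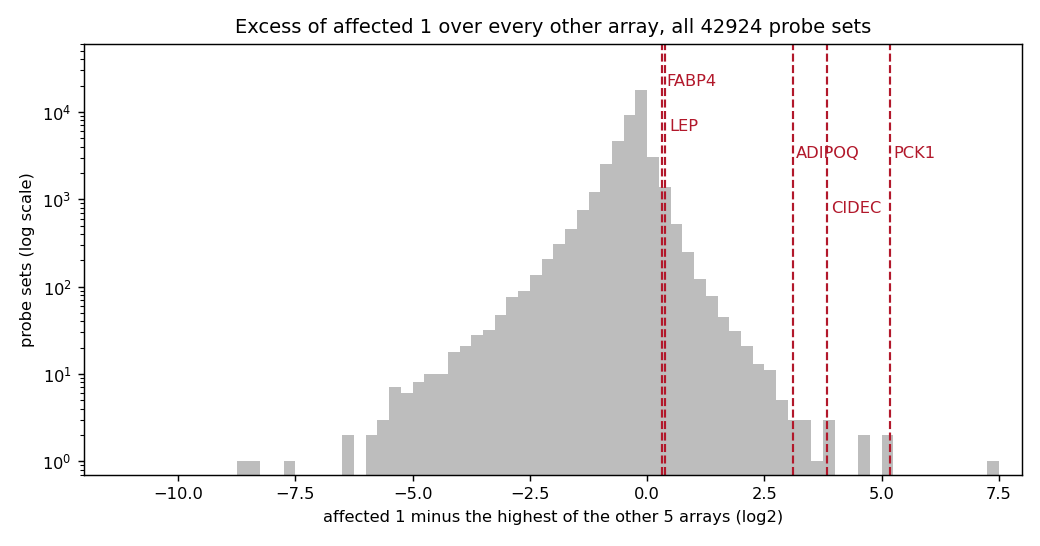
Affected 1 minus the highest of the other 5 arrays (log2, horizontal axis) for all 42924 probe sets, with the number of probe sets on a log scale (vertical axis). Dashed lines mark the 5 member probe sets that were highest on affected 1: PCK1 at 5.17, CIDEC at 3.84 and ADIPOQ at 3.10 lie in the far right tail, and LEP at 0.38 and FABP4 at 0.33 lie just above 0, where affected 1 was the highest array in 12.9% of probe sets.

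The members differed in how they ran over the arrays. PCK1 (first probe set) and CIDEC had a correlation of 1.00 over 6 arrays, which was 0.66 over the 5 without affected 1. PCK1 and ADIPOQ (wide-ranging probe set) had 0.84, and 0.45 without it. ADIPOQ and CIDEC had 0.80, and -0.36 without it. Each of these is a description over arrays that share 1 extreme point.

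Beyond the members, 117 genes of fat tissue in 7 lists were looked up, and 99 were measured by 212 probe sets. In limma 0 of the 212 passed an adjusted p under 0.05 in either direction (smallest adjusted p = 0.296), where 1 probe set of all (0.00233%) was called higher and 0 (0%) lower. At an unadjusted p under 0.05, 11 were higher (5.19%) and 12 lower (5.66%) in affected hearts, where 4.53% of all probe sets (1945) were higher and 6.32% (2713) lower. After median centring of each array the split over all probe sets was 2385 higher and 1097 lower. The shares in the fat lists thus lay near those over all probe sets. By the mean of their probe sets, 5 of 17 measured genes of droplets and lipolysis, 9 of 20 of triglyceride synthesis, 6 of 13 of fatty acid uptake and 7 of 17 adipogenic regulators had a higher affected mean. The same held for 5 of 13 secreted proteins and receptors, 2 of 10 insulin and glucose genes and 0 of 10 brown fat genes. Over all single probe sets, the share with a higher affected mean was 33.0%. List medians lay between -0.15 and -0.06, beside -0.08 over all probe sets. The direction turned in 4 of the 7 lists under some alternatives: without the 40% of probe sets with the smallest ranges the median was 0.67 for secreted proteins, 0.09 for fatty acid uptake, 0.02 for triglyceride synthesis and 0.02 for adipogenic regulators.

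The same lists were then described by single array. They were chosen with earlier results of these data known, so these counts are a description and no test of a fat signal. Affected 1 lay at least 1 above every other array in 10 of the 212 probe sets (4.72%), from 7 genes, beside 0.797% of all probe sets. The same count was 2 for affected 2 and 0 for affected 3, against 3 for control 1, 2 for control 2 and 0 for control 3. The genes with such an excess on affected 1 were CIDEA, LIPA, DGAT2, RBP4, CFD, NNAT and RETN. They fell in 3 of the lists: droplets and lipolysis, triglyceride synthesis, and secreted proteins of fat.

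CIDEA, a droplet protein of the same family as CIDEC, read 5.30, -0.07 and 1.36 on affected 1, 2 and 3, against -0.07, -1.10 and 0.07 on control 1, 2 and 3. Its other probe set read 2.07, -0.12 and -0.08 on affected 1, 2 and 3, against 0.05, -0.05 and 0.71 on the control arrays, so affected 1 was the highest in both. LIPA, the lysosomal lipase that is abundant in macrophages, read 3.35, -0.04 and 0.17 on affected 1, 2 and 3, against -0.02, 0.02 and -0.09 on the control arrays. The widely expressed droplet coat PLIN2 lay between -0.70 and 0.84 in its 4 probe sets, and affected 1 was the highest in 1 of them, by 0.15. PLIN4, a coat protein of fat and muscle cells, read 0.71, -0.44 and -0.42 on affected 1, 2 and 3, against 0.31, -0.31 and 0.65 on the control arrays in its widest probe set. PNPLA2, the lipase that starts fat breakdown, read -0.04, -0.74 and 0.04 on affected 1, 2 and 3, against 0.47, -0.22 and 0.67 on the control arrays in its widest. In their widest probe sets AQP7, a glycerol channel, was highest on affected 2 at 1.32, and PLIN3, a widely expressed droplet coat, on affected 3 at 1.35.

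DGAT2, which makes the last bond of triglyceride, read 3.92, 0.07 and -0.49 on affected 1, 2 and 3, against 1.92, -0.17 and -0.07 on control 1, 2 and 3. A second probe set read 1.67, -0.06 and -0.35 on affected 1, 2 and 3, against 0.07, -0.30 and 0.06 on the control arrays. Affected 1 was the highest in both, and control 1 was next in both, while the remaining 2 probe sets spanned 0.28 and 0.10. GPD1, which supplies glycerol phosphate, ran the other way in its widest probe set, at -1.34, 0.05 and -0.45 on affected 1, 2 and 3, against -0.05, 0.24 and 0.50 on the control arrays. SCD, the desaturase of fatty acid synthesis, was lowest on affected 2 in all 3 of its probe sets, at -2.87 in the widest, which read -0.10 and -1.10 on affected 1 and affected 3, against 0.51, 0.88 and 0.10 on the control arrays. ACLY, which makes acetyl-CoA for lipid synthesis, had 0.95 on affected 1 in its widest probe set, against 2.66 on control 1, which was the highest array in all 3 of its probe sets.

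Of the secreted proteins, RETN, the dog gene for resistin, read 2.92, 0.61 and 0.74 on affected 1, 2 and 3, against -1.39, -0.61 and -1.15 on control 1, 2 and 3. All affected arrays lay above all control arrays, by a mean of 2.47 (SE 0.69, limma adjusted p = 0.296), where 5.37% of all probe sets lay higher without overlap. Resistin comes from fat cells in mouse and mainly from macrophages in human. CFD, the complement protease adipsin, read 1.94, 0.11 and 0.82 on affected 1, 2 and 3, against -0.17, -0.11 and -0.91 on the control arrays. RBP4, a retinol carrier of fat and liver, had 2 probe sets at 1.82 and 2.54 on affected 1, against at most 0.34 on any other array. RARRES2, which encodes the adipokine chemerin, read 1.48, 0.30 and 0.60 on affected 1, 2 and 3, against -0.30, -0.52 and -0.38 on the control arrays in its widest probe set. NNAT, a small membrane protein of fat and brain, was at 1.52 on affected 1 in 1 of its 3 probe sets, against 0.08 or less elsewhere.

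Of the fatty acid uptake genes, 0 of 28 probe sets lay at least 1 above all other arrays on affected 1. With 0.797% of all probe sets at that mark, a count of 0 in this and the next lists is near the background and says nothing particular about them. CD36, the fatty acid receptor of muscle, capillaries and fat, lay between -0.28 and 0.53, and LPL, lipoprotein lipase, between -0.98 and 0.18. GOT2, the mitochondrial aspartate aminotransferase that also binds fatty acids, read -0.89, -1.12 and -0.33 on affected 1, 2 and 3, against 0.33, 1.37 and 1.13 on the control arrays in its widest probe set. The groups did not overlap there (limma adjusted p = 0.296), where 46.9% of all probe sets lay lower without overlap. Among adipogenic regulators the count was 0 of 39, and CEBPA was not analysed here. KLF5, a factor early in fat cell formation, read 0.48, 0.22 and 1.15 on affected 1, 2 and 3, against -0.22, -0.99 and -0.68 on the control arrays in its widest. Brown fat genes had 0 of 14, and UCP1, the uncoupling protein of brown fat, read 0.03, -0.06 and -0.04 on affected 1, 2 and 3, against 0.02, -0.02 and 0.32 on the control arrays. Insulin and glucose genes had 0 of 19.

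**Figure D3:**
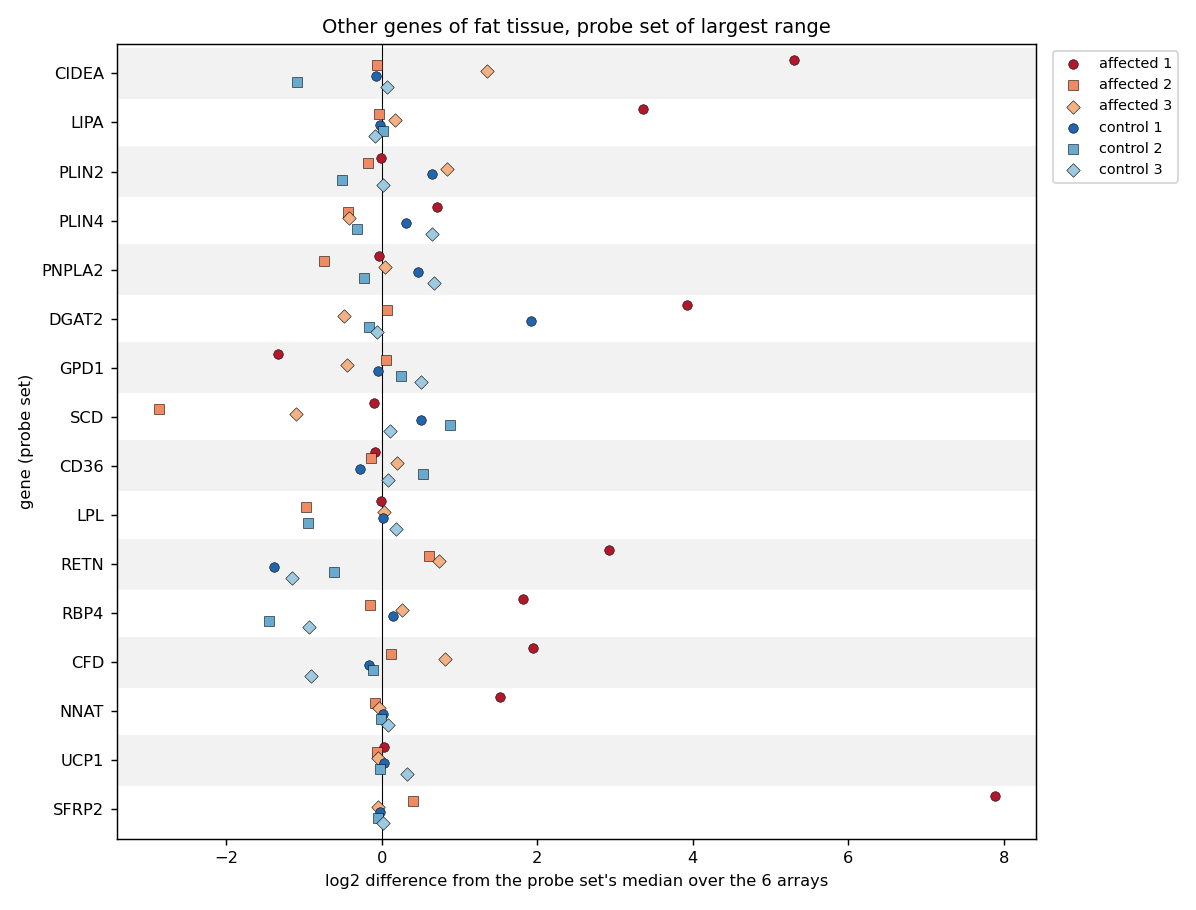
Other genes of fat tissue, 1 row per gene with its probe set of largest range, 1 point per array, as the log2 difference from the probe set's median (horizontal axis). Affected 1 is the highest array for CIDEA, LIPA, DGAT2, RETN, RBP4, CFD, NNAT and SFRP2, and by 0.06 for PLIN4. It is not the highest for PLIN2, PNPLA2, GPD1, SCD, CD36 or LPL.

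Markers of other cell types moved on the same array. The macrophage list (13 of 13 genes measured) had a median of 2.04, -0.07 and -0.01 on affected 1, 2 and 3, against 1.48, -0.42 and -0.37 on control 1, 2 and 3. Affected 1 was the highest array for 11 of the 13 genes by the mean of their probe sets, and at least 1 above all others in 8 of 23 probe sets. Over all single probe sets, not gene means, these shares were 12.9% and 0.797%. Control 1 was the next highest array by the macrophage median, and also by the mean of the 8 adipocyte genes, at 0.14. CD68, a lysosomal protein of macrophages, is named here because its values had been seen. It was highest on affected 1 in both of its probe sets. The wider read 2.43, 0.03 and -0.01 on affected 1, 2 and 3, against 0.01, -0.56 and -0.46 on the control arrays. AIF1, another macrophage protein, read 3.73, -0.69 and 0.42 on affected 1, 2 and 3, against 1.94, -0.42 and -0.96 on the control arrays. The part of macrophages in the values of RETN, LIPA and FABP4 was not tested.

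Fibroblast markers (12 of 12 measured) had a median of 1.10, 0.06 and 0.67 on affected 1, 2 and 3, against -0.33, -0.13 and -1.61 on control 1, 2 and 3. By this median all affected arrays lay above all control arrays, so it did not set affected 1 alone apart. The median difference was 1.58, and 1.34 without affected 1. In limma 14 of the 30 probe sets were higher at an unadjusted p under 0.05, where 4.53% of all probe sets were, and 0 passed the adjusted threshold. The fat progenitor list held 12 symbols, of which PREF1 and WISP2 are older names of DLK1 and CCN5, and 9 symbols were measured. Its medians lay between -0.11 and 0.04 over the arrays. Affected 1 lay at least 1 above every other array in 4 of its 17 probe sets, from 3 genes, beside 0.797% of all probe sets. Within this list SFRP2, a secreted Wnt modulator of fibroblasts and fat progenitors, had the largest excess on affected 1 of all probe sets. It read 7.88, 0.41 and -0.05 on affected 1, 2 and 3, against -0.02, -0.05 and 0.02 on control 1, 2 and 3, and 7.46, 2.42 and -0.06, against -0.03, -0.16 and 0.03, in its next widest probe set, while its remaining probe set spanned 0.16. PI16, a marker of fibroblasts near vessels, read 2.42, -0.35 and 1.39 on affected 1, 2 and 3, against -0.46, 0.35 and -1.28 on the control arrays in its widest.

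Capillary endothelium, another source of FABP4, had a median over 16 of 16 genes of -0.41, -0.08 and 0.16 on affected 1, 2 and 3, against 0.01, 0.51 and -0.06 on control 1, 2 and 3. Affected 1 was the lowest array by this median, and the markers differed among themselves. The part of endothelium in the FABP4 values was not tested. CDH5, the endothelial cadherin, read -1.54, -0.44 and 0.23 on affected 1, 2 and 3, against -0.13, 0.87 and 0.13 on the control arrays in its widest probe set. PECAM1 read -0.93, -0.91 and 0.09 on affected 1, 2 and 3, against 0.70, -0.09 and 1.06 on the control arrays in its widest. VWF, the clotting factor stored in endothelium, read 0.36, 0.24 and 1.13 on affected 1, 2 and 3, against -0.46, -0.25 and -0.24 on the control arrays.

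The heart surface was looked at through mesothelial and epicardial markers, 8 of 12 of which were measured. Their median was -0.05, -0.05 and -0.01 on affected 1, 2 and 3, against 0.05, 0.00 and 0.09 on control 1, 2 and 3, and 0 of 12 probe sets lay at least 1 above all others on affected 1, which is near the 0.797% of all probe sets. TCF21, a transcription factor of epicardium and fibroblasts, was lowest on affected 1, at -1.60. The cardiomyocyte list (14 of 15 measured) had medians of 0.08, 0.02 and 0.13 on affected 1, 2 and 3, against 0.02, -0.08 and -0.14 on the control arrays. The median of the heart muscle markers on affected 1 thus lay within the range of the other arrays. Medians of the smooth muscle (11 of 11 measured), nerve (7 of 10) and skeletal muscle (12 of 12) lists lay between -0.15 and 0.23 on every array. The blood list (4 of 10 measured) had -0.03, -0.05 and -0.02 on affected 1, 2 and 3, against 0.05, 1.21 and 0.11 on the control arrays.

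**Figure D4:**
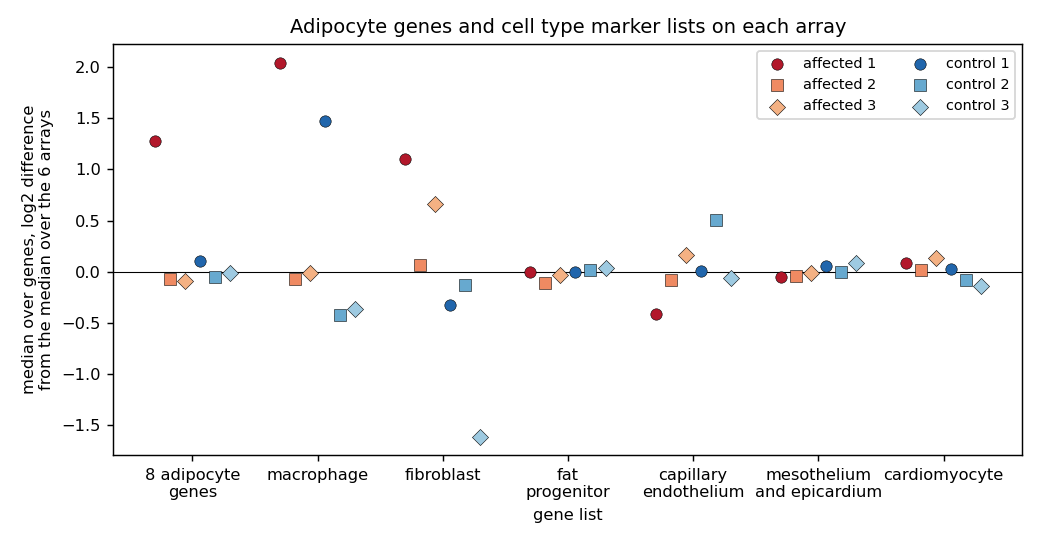
Median over genes of the 8 adipocyte genes and 6 marker lists on each array (vertical axis, log2 difference from the median over the 6 arrays); each point is 1 array. Affected 1 is high for adipocyte genes at 1.28, for macrophages at 2.04 and for fibroblasts at 1.10. Control 1 is next highest for macrophages at 1.48 and for adipocyte genes at 0.11.

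Of the 15 probe sets that stood at least 3 above every other array on affected 1, 3 were members and 2 were from the fat lists (CIDEA and LIPA), and 2 had no symbol. SFRP2, of the fat progenitor list, held ranks 1 and 3 among them. The largest excesses by gene outside the 8 members were SFRP2 at 7.48, CIDEA at 3.94, the dynein chain DYNC1I1 at 3.85, the collagen COL12A1 at 3.64 and the receptor GPR37 at 3.36. DLA-DQB1, a class II antigen presentation gene, followed at 3.34, the serine synthesis enzyme PHGDH at 3.29, LIPA at 3.18, GNRH1 at 3.07, the oxidase FMO2 at 2.99, MGST1 at 2.97 and RGS10 at 2.85.

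The genes whose values ran most like the mean of the 8 members over the 6 arrays were TPST1 (correlation 1.00), DLA-DQA1, STING1, PSPC1, EVI2B, DGAT2, FAH, CALHM6, CD48, DYNC1I1, SORL1 and RAC2 (0.97). They came from 7072 probe sets that spanned at least 1, and all 12 had their highest value on affected 1, between 0.90 for PSPC1 and 3.89 for DYNC1I1. The mean they were matched to was itself dominated by affected 1. For single members the most alike genes were NNAT, DSG1 and IFNGR2 for CIDEC, LTBP2, TEKT5 and SIN3A for PCK1, and PECR, RRAD and PTER for ADIPOQ. They were MIGA1, ELP4 and BIVM for FABP4, MYL4, C2 and RND3 for LEP, and ISOC2, ALKBH7 and PRPF19 for LIPE. They were GNG11, PSMB9 and SLC44A2 for PPARG and ENDOV, VPS37D and SMARCC2 for PLIN1. Over 6 arrays such likeness is a description only.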

How the data were processed

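The deposited values are on a log scale taken here as log2, since the base is not given in the sources used here. Per the submitters' processing notes, MAS5 and GCRMA were among the tools; their versions and order are not given in the sources used here. Every one of 43035 probe sets had a median within 5.00e-07 of 0, so the deposited values hold no level, and arrays give no depth. The labels call the arrays biological replicates.

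Without 111 control probe sets, limma 3.58.1 in R 4.3.3 (lmFit, eBayes, a group term alone, two-sided) was fitted to 42924 probe sets, unfiltered, with Benjamini-Hochberg adjustment at 0.05; it gave each SE and was tested on simulated data. A gene value is the mean of its probe sets. In the annotation 29254 probe sets had 1 symbol, 439 several and 13231 were not listed. By Entrez ID 7 of the 8 genes matched RefSeq, and PLIN1 by symbol only. Of the 13 probe sets, 7 are of the _s_at kind, which can bind several transcripts.

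The members and lists were chosen with earlier results of these data known. Named genes were the 8 members, genes chosen by name, those of widest range in each list (at most 4), the 12 with the largest excess on the array where the members stood highest, and the 12 most alike by Pearson correlation (3 for each member). CD68 was added after its values were seen. Not every gene the rule allows is described. Alternatives were quantile normalization, median centring, single arrays left out, a replicate block, sex, age, a range filter and the widest probe set per gene. Same-numbered arrays deviated from their group means with correlations of 0.27, 0.15 and 0.02, and the third pair missed 0.1, so the numbers were not taken as pairs. Promoter and protein sequences were not used here.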

Additional observations from a re-analysis of the deposited data

How the results depend on the processing

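The excess of affected 1 in 3 of 13 adipocyte probe sets was also 3 after quantile normalization and after median centring. The median difference of the 8 genes, 0.52, turned to -0.24 without affected 1 and ran up to 0.69 without affected 3; it was 0.22 after quantile normalization and 0.74 with the widest probe set per gene. The single member probe sets gave 143 alternative values, of which 140 moved by less than 1 SD, and PLIN1 gave the other 3. This does not show that the differences were stable, since affected 1 itself widens the SD. Without affected 1, PCK1 (first probe set) went from 1.57 to -0.35, CIDEC from 1.16 to -0.24 and ADIPOQ (wide-ranging probe set) from 1.66 to 0.03. These moves counted as less than 1 SD, with affected SDs of 3.33, 2.42 and 3.20. Of 221 alternative list medians, 176 moved by less than 1 SD and 45 by more; the cause was not tested.

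Over all probe sets limma called 1 higher and 0 lower. It called 0 higher after quantile normalization, with a replicate block and with age, and 6 without the 40% smallest ranges, where fewer were tested. Single arrays left out gave 0 (without control 2 or control 3) to 3 higher (without affected 3) and 0 to 2 lower (2 without affected 3). At an unadjusted p under 0.05 the 1945 higher became 2919 with age and 1097 (without control 3) to 3100 (without control 2) with single arrays left out. The 2713 lower became 1097 after median centring, 9745 with age, 771 without the smallest ranges and 655 (without affected 1) to 12212 (without control 2) with single arrays left out. The replicate block gave 2193 higher and 2260 lower, a median difference of 0.52 for the 8 genes, and changed no member's value. Affected 3 correlated best with control 2, not with its own number. In the fat lists 0 probe sets passed the adjusted threshold under every alternative run. The promoter alternative was not run, since no sequences were used. The range filter would have left out 2 of the 13 member probe sets, both of PLIN1.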

Other observations

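One probe set is annotated to FABP4 together with other symbols, 3 in all, and was left out by the choice of members. It read 2.01, 1.39 and -1.92 on affected 1, 2 and 3, against -0.62, 0.62 and -1.60 on control 1, 2 and 3, and its correlation with the FABP4 probe set over the 6 arrays was 0.99.

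Blood markers stood high on 1 control array. ALAS2, the heme enzyme of red cell precursors, was at 5.53 on control 2, and PPBP, a platelet chemokine, at 3.77 in its widest probe set, while the 8 adipocyte genes averaged -0.18 there. The epithelial keratin KRT18 was at 2.77 on affected 3 in the wider of its 2 probe sets, against at most 0.11 on any other array.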
